A study of Mus musculus with 3 samples.

Results

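JunD-dominant shared sites are places where a strong JunD peak meets a BACH2 peak that is weak within its own list. They were chosen by measured values of the 2 peak lists. A JunD peak was taken when its score was at least 110, its width was at most 1000 bp, at least 1 bp of it was covered by a BACH2 peak, and the strongest such BACH2 peak had a −log10 q below 10. Of 5237 JunD peaks, 1249 passed the score and width limits, and 208 of these met the whole rule. The lists come from chromatin immunoprecipitation followed by sequencing (ChIP-seq) of induced regulatory T cells, with 1 BACH2 library, 1 JunD library and 1 input library. All were made from wild-type C57BL/6 mice aged 8 to 12 weeks, whose splenic CD4+ T cells were sorted and cultured for 4 days on anti-CD3ε and anti-CD28 with TGF-β. There is no second library of either factor, so no value below has an error between replicates, and the sequencing depth is unknown. The labels name the cells Treg cells, and peak lists carry no expression from which that identity could be checked.

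JunD is a subunit of AP-1, a family of dimeric transcription factors that activated T cells use to switch on cytokine and growth genes. BACH2 is a basic leucine zipper repressor that pairs with small Maf proteins and binds a longer element with an AP-1 site inside it, so that both factors can occupy the same short stretch of DNA. In T cells BACH2 is known for restraining effector programmes and for favouring regulatory T cells, partly by limiting access of AP-1 to shared sites. Sites where one factor is strong and the other weak are therefore of interest for the balance between them. All positions are mm9, and no mm9 sequence or gene annotation was used here, so sites are named by position and neither genes nor motifs are assigned.

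The 208 sites had a median JunD score of 149 (interquartile range 125 to 194, highest 601.08) and a median JunD width of 656 bp (542 to 777). The score is the authors' value for each peak, and its scale is not stated. The strongest BACH2 peak at each site had a median −log10 q of 6.28 (4.62 to 7.95, lowest 1.31) and a median fold enrichment of 3.89 (3.31 to 4.43), both the authors' values. These numbers restate the rule and are a description. In the whole BACH2 list the median fold was 5.75, and only 7 of the 208 sites lay at or above it. The BACH2 peaks at these sites ranked from 5311 to 9133 in a list of 9133, the last rank included, while the JunD peaks ranked from 43 to 1632 of 5237. Only 117 of the 208 were in the strongest 20% of JunD peaks. The word dominant thus compares ranks in 2 lists with different scores, and it does not compare amounts of bound protein.

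**Figure D1:**
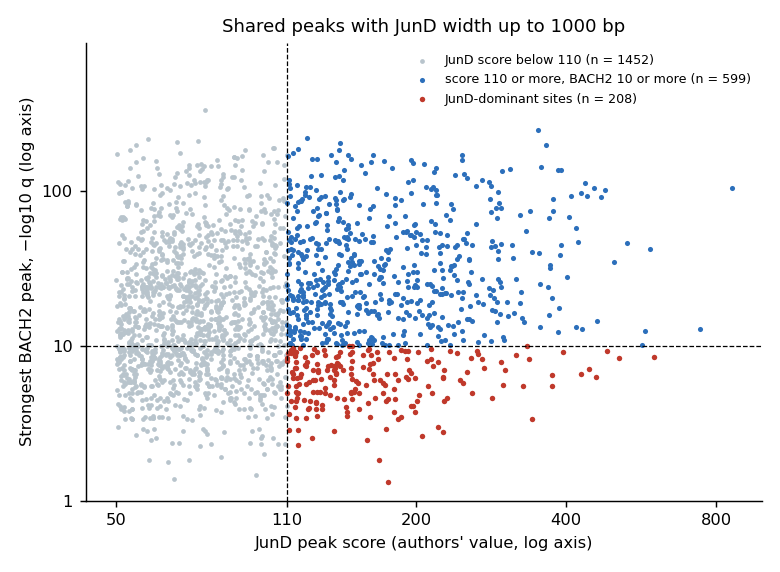
JunD peak score (horizontal log axis) against the −log10 q of the strongest overlapping BACH2 peak (vertical log axis), 1 point per shared JunD peak up to 1000 bp wide, with dashed lines at a score of 110 and a −log10 q of 10. The 208 JunD-dominant sites (red) fill the lower right corner, and they continue without a gap into the 599 sites with stronger BACH2 peaks (blue) and into the sites with lower JunD scores (grey).

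The limits cut through a continuous spread. The members with the lowest JunD scores had 110.07 (chromosome 1, 64347611 to 64348016) and 110.09 (chromosome 17, 75904251 to 75904847), and the next peaks outside had 109.95 and 109.47. On the BACH2 side, the last members had a −log10 q of 9.99 and the first sites outside 10.05. One site at 10.05, at chr12:55835107-55836015, carried a JunD score of 568, above the score of all but 1 member. The other, tied with it at chr10:19824300-19824785, had a score of 113. The widest member was 989 bp wide and the narrowest site kept out by width alone was 1005 bp. Within the members, JunD score and BACH2 −log10 q had a Spearman's rho of 0.074 across 208 sites, a correlation across sites of the same libraries that is given as a description. The rule narrows the range of both values.

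The strongest site lay at chr12:55814875-55815735, with a JunD score of 601.08, rank 43 in its list. Its BACH2 peak (55815225 to 55815497) had a fold of 5.02 and a −log10 q of 8.46, rank 5912. Its summit, the highest point of the peak, was 76 bp from the JunD centre. Within 30 kb on either side there were 7 JunD peaks, this one included, and 7 BACH2 peaks, which paired off one to one. The 7 JunD scores ran from 157 to 652, and the BACH2 −log10 q values from 7.25 to 19.1. A second member lay 4.84 kb away (55819780 to 55820517, score 157, −log10 q 7.25). Another JunD peak of this run (55838908 to 55839925, score 443, −log10 q 8.22) missed the rule only by its width of 1018 bp, and the site at 55835107 named above belongs to the same run. Every JunD peak in this stretch thus had a BACH2 peak, and none of those BACH2 peaks ranked above 2853 of 9133.

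The next sites by score were at chr13:63324331-63325224 (score 510), chr6:70822016-70822795 (score 482), chr11:87284413-87285344 (score 460) and chr7:71286084-71286949 (score 445). The chromosome 13 site is one of 3 members with 2 BACH2 peaks. Its weaker peak had a −log10 q of 4.90 and a summit at -311.5 bp from the JunD centre, and its stronger one had 8.28 and a summit at 180.5 bp, so the BACH2 peaks sat on either side of the middle. The chromosome 7 site had a BACH2 fold of 3.08 and a −log10 q of 7.11. The next BACH2 summit, 19.1 kb away, had a fold of 18.4 and a −log10 q of 114. The chromosome 11 site had a −log10 q of 6.29 and another strong JunD peak, of score 555, at 8.87 kb.

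The remaining 5 of the strongest 10 had scores from 341 to 429. They lay at chr6:108114693-108115421 and chr6:98942494-98943241, chr12:106251161-106251796, chr17:84515459-84516389 and chr11:76547858-76548694. The first of these stood far from other peaks, with the next BACH2 summit at 149 kb and the next JunD centre at 163 kb. The chromosome 17 site was crowded, with a BACH2 summit at 2.77 kb and a JunD centre at 3.07 kb. In all of the 10 the strongest BACH2 peak lay wholly inside the JunD peak, with its summit between 29 and 234 bp from the centre. Among these 10, high JunD scores with weak BACH2 peaks were thus found both at lone sites and within runs of peaks.

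The site at 76547858 on chromosome 11 had the widest gap between its rank in the BACH2 list and its rank in the JunD list. The gap is a difference of raw ranks in lists of 9133 and 5237 peaks. Its JunD score of 341 ranked 174, in the first 3.32% of the list, and its BACH2 peak, with a fold of 3.15 and a −log10 q of 3.35, ranked 8813. The next gaps belonged to chr9:44794271-44795166 (score 227, −log10 q 2.77), chr10:44541412-44541833 (score 206, −log10 q 2.61), chr3:138083110-138083820 and chr4:128736982-128737652 (score 221, −log10 q 2.99). The chromosome 3 site held the very last BACH2 peak of the list, with a fold of 2.31 and a −log10 q of 1.31, under a JunD score of 176. The other 4 of the 5 members with the weakest BACH2 peaks had −log10 q values from 1.84 to 2.55. They were at chr6:41491449-41492275, chr12:114098919-114099478, chr11:100792616-100793363 and chr1:140032944-140033496. As shares of each list the same 5 sites had the largest gaps, with chromosome 4 then ahead of chromosome 10 and chromosome 3. At the 5 sites with the weakest BACH2 peaks the BACH2 summit was at most 120 bp from the JunD centre.

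The share of JunD peaks with a weak BACH2 peak varied little with the JunD score, while that with a stronger BACH2 peak was higher at high scores. Members made up 16.7% of the 1249 JunD peaks past the score and width limits (Wilson 95% interval 14.7 to 18.8, which covers the counting of peaks only). Among all 5237 JunD peaks, 15.2% had a strongest BACH2 peak below a −log10 q of 10, so the members' share was near that background. By score, the share was 17.5% (14.7 to 20.7) from 110 to 150, 17.0% (13.2 to 21.5) from 150 to 200, 13.9% (9.99 to 18.9) from 200 to 300 and 17.0% (10.6 to 26.2) from 300 upward. What changed with the score were the other 2 classes. Sites with a BACH2 peak of 10 or more went from 41.9% to 63.6% between the lowest and highest score class, and JunD peaks with no BACH2 peak went from 40.6% to 19.3%. Counted only among the JunD peaks that had a BACH2 peak, the weak ones made up 29.4% (108 of 367), 28.0% (53 of 189), 17.8% (32 of 180) and 21.1% (15 of 71) in the 4 score classes. They made up 33.7% (31.4 to 36.2) below a score of 110 and 25.8% (22.9 to 28.9) from 110 upward. The rule used the score and the BACH2 value, so these shares describe the lists and were not tested.

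**Figure D2:**
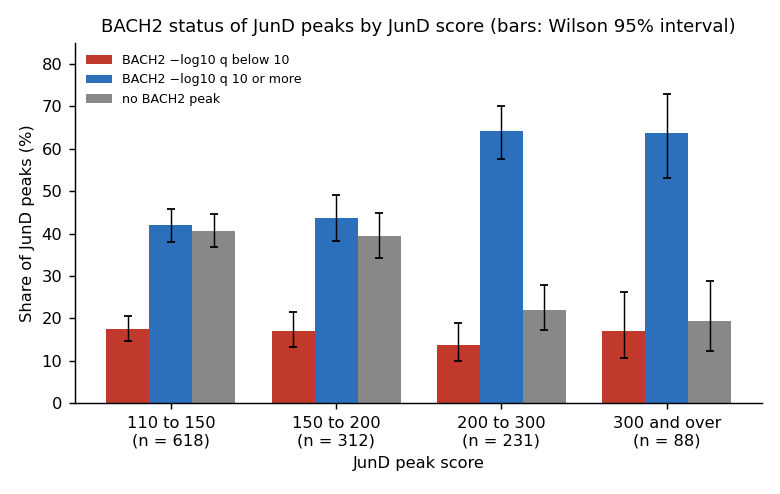
Share of JunD peaks up to 1000 bp wide (vertical axis, %) in 4 classes of JunD score (horizontal axis), split by the strongest overlapping BACH2 peak, with Wilson 95% intervals as error bars. The red bars, weak BACH2, stay between 13.9% and 17.5%, while the blue bars, stronger BACH2, reach 64.1% and the grey bars, no BACH2 peak, fall to 19.3%.

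Where the BACH2 summit sits inside the JunD peak was not part of the rule. At the members the summit lay a median of 58.25 bp from the midpoint of the JunD peak (95% interval of the median 46 to 66). At the 599 JunD peaks of the same score and width with a BACH2 −log10 q of 10 or more it was 48 bp (42.5 to 53.5). The summit was within 100 bp of the centre at 157 of 208 members, or 75.5% (69.2 to 80.8), and at 78.1% (74.6 to 81.3) of the stronger sites. Among all JunD peaks with a BACH2 peak it was 72.9%. The difference between members and stronger sites was -2.65 percentage points, with a Newcombe 95% interval from -9.66 to 3.73 that covers the counting of sites only. Within 50 bp the shares were 45.2% and 51.3%, a difference of -6.06 points (-13.8 to 1.82). The middle 50% of the JunD peak held the summit at 94.7% of members and 94.8% of stronger sites. The intervals of the medians overlapped and those of both differences include 0, and the overlap rule itself limits the distance.

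Few sites departed from this placing. The summit lay outside the JunD peak at 1 member, at chr3:95189570-95190075, 308.5 bp below its centre. The farthest summit from a centre, 368 bp, was at chr16:49806929-49807767, where 45.0% of the BACH2 peak was covered. The closest pair was at chr17:83883108-83883612, where summit and centre fell on the same base. Summits showed no common side, since 97 of 208 were at the lower coordinate. The BACH2 peak was wholly inside the JunD peak at 200 of 208 members, against 81.0% of the stronger sites. The BACH2 peaks of the stronger sites were wider, with a median of 389 bp against 238 bp. Whether width accounts for the difference in enclosure was not tested.

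**Figure D3:**
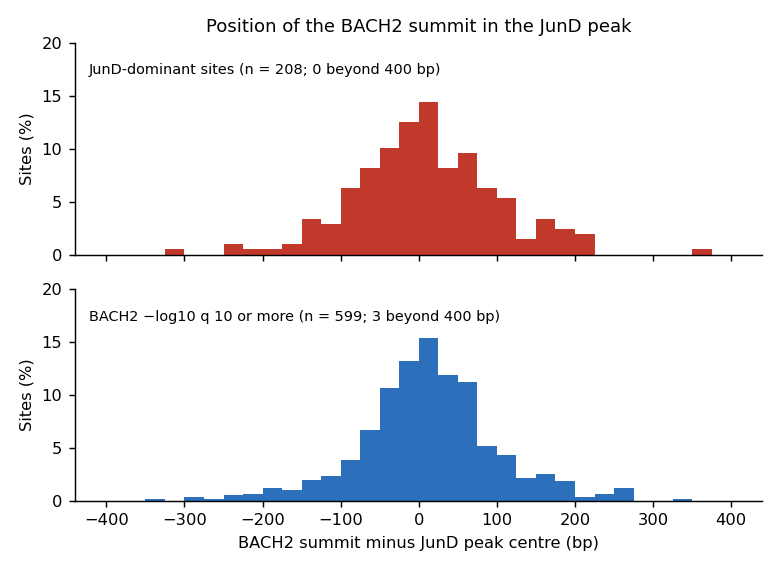
Histogram of the distance from the JunD peak centre to the summit of the strongest BACH2 peak (horizontal axis, bp, in bins of 25 bp) as a share of sites (vertical axis, %), for the 208 JunD-dominant sites (top) and the 599 sites with a BACH2 −log10 q of 10 or more (bottom). Both distributions peak at the centre, and 75.5% and 78.1% of summits lie within 100 bp of it.

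The BACH2 peaks at these sites had lower fold enrichment than BACH2 peaks of similar −log10 q that no JunD peak overlapped. The comparison group was the 2951 BACH2 peaks with a −log10 q below 10 and no overlapping JunD peak, whatever the distance to the nearest one. Their median −log10 q was 6.29, near the 6.28 of the members, and their median fold was 4.37 (95% interval of the median 4.35 to 4.41) against 3.89 (3.78 to 4.02). The order held in each range of −log10 q, with medians of 2.89 against 3.30 below 4, 3.51 against 4.01 from 4 to 6, 4.17 against 4.77 from 6 to 8 and 4.44 against 5.22 from 8 to 10. The intervals of the paired medians did not overlap in any of the 4 ranges. Of the members, 24 of 29, 51 of 61, 50 of 67 and 35 of 51 lay below the median fold of the BACH2 peaks without JunD in their range. The members' BACH2 peaks were also wider, at a median of 238 bp (95% interval of the median 224 to 251) against 203 bp, with an interquartile range of 193 to 285 bp against 175 to 246 bp. In the same 4 ranges of −log10 q the median widths were 224 against 196 bp, 231 against 191 bp, 227 against 204 bp and 251 against 223 bp, and the intervals of the medians overlapped in the first and the third range.

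The median fold was also lower at weaker JunD sites than at BACH2 peaks without JunD. The 537 that overlapped only JunD peaks with a score below 110 had a median fold of 4.01 (3.89 to 4.13). It lay between the medians of the members and of the BACH2 peaks without JunD, and its interval overlaps the members' 3.78 to 4.02. The median −log10 q of the 537 was 6.57 against 6.28 at the members, and the groups were not matched on it here. Over all 675 other weak BACH2 peaks that overlapped JunD, wide JunD peaks included, the median fold was 3.89 (3.83 to 4.01). Their median width was 219 bp (212 to 230), above the 203 bp of BACH2 peaks without JunD, and this interval overlaps that of the members. In the 4 ranges of −log10 q their median widths were 206.5, 222.5, 208 and 235 bp, so greater width was not particular to the members. That set also holds the weaker BACH2 peaks of the 3 members with 2 BACH2 peaks. Any weak BACH2 peak beside a stronger one in the same JunD peak is in it too. Fold and −log10 q come from the same BACH2 contrast as the rule, so the difference is a description with no test, and its cause was not tested.

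**Figure D4:**
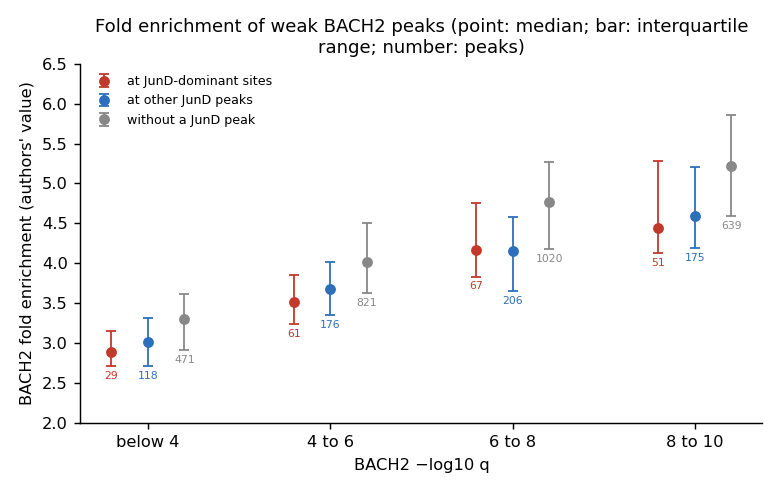
BACH2 fold enrichment (vertical axis, the authors' value) of BACH2 peaks with a −log10 q below 10, in 4 ranges of −log10 q (horizontal axis), as medians with interquartile ranges and the number of peaks. Red marks the strongest BACH2 peak of each JunD-dominant site, and blue all other weak BACH2 peaks that overlap JunD. In every range the red and blue medians lie below those of BACH2 peaks without a JunD peak (grey), for example at 4.17, 4.16 and 4.77 from 6 to 8.

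Among the members, the BACH2 fold was lower under wider JunD peaks. The median fold was 4.26 at the 83 sites up to 600 bp wide, 3.87 at the 65 sites up to 750 bp and 3.64 at the 60 wider ones. The median −log10 q in these classes was 6.60, 6.55 and 6.01, and the median JunD score 137, 160 and 164. Spearman's rho between JunD width and BACH2 fold was -0.32 across the 208 sites and -0.19 across the 599 stronger sites, again across sites of the same 2 libraries. The highest fold at any member, 6.44, was at chr19:14694889-14695463. The distance from summit to centre was larger in wide peaks too, with medians of 37.5, 54.5 and 86.2 bp in the 3 width classes.

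The surroundings of the members were compared with those of the other JunD peaks. Another BACH2 summit, outside the overlapping one, lay within 10 kb of 96 of 208 members, or 46.2% (39.5 to 52.9). Over all JunD peaks the share was 41.1%, which lies inside the members' interval. It was 47.6% (43.6 to 51.6) at the stronger sites and 32.8% (28.6 to 37.3) at the 442 JunD peaks of the same score and width with no BACH2 peak. The members exceeded the latter by 13.3 percentage points (Newcombe 95% interval 5.32 to 21.3) and differed from the former by -1.43 points (-9.18 to 6.43). The gap was largest in the lowest class of JunD score. Between 110 and 150 the shares were 51.9% of members and 29.5% of JunD peaks without BACH2, between 150 and 200 they were 39.6% and 39.8%, and from 200 upward 40.4% and 32.4%. The gaps in these classes were 22.4 points (11.3 to 33.0), -0.21 points (-15.1 to 15.5) and 8.07 points (-9.33 to 25.4). Their intervals overlap, and a dependence on score was not tested. Against the stronger sites, the members differed by 6.29 points (-4.84 to 17.2) in the lowest class. In the higher classes they differed by -8.17 points (-22.8 to 7.58) and -9.57 points (-24.1 to 6.20), and each of these intervals includes 0. With a score of at least 150 the gap to JunD peaks without BACH2 was 2.83 points (-8.65 to 14.6). At other distances the gap was 5.91 points (2.38 to 10.6) within 1 kb, 8.29 points (1.24 to 15.7) within 5 kb, 6.28 points (-1.19 to 13.2) within 50 kb and 6.08 points (-0.02 to 11.5) within 100 kb, and the last 2 intervals include 0.

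A stronger BACH2 peak, with a −log10 q of at least 10, lay within 10 kb of 66 members, or 31.7% (25.8 to 38.3), against 34.2% of stronger sites, 21.3% of JunD peaks without BACH2 and 28.4% of all JunD peaks, a value inside the members' interval. Where another BACH2 summit was within 10 kb, the nearest was stronger than the member's own in 82 of 96 cases, which the rule favours because it keeps only weak BACH2 peaks. A JunD peak overlapped the nearest one in 32 of the 96, and over all BACH2 peaks a JunD peak overlapped 29.3%. Among the 66 nearest BACH2 peaks with a −log10 q of at least 10, JunD overlapped 25, against 33.8% of all BACH2 peaks of that strength.

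JunD neighbours had similar shares in the 3 classes. Another JunD centre lay within 10 kb of 72 members, or 34.6% (28.5 to 41.3), of 34.4% of stronger sites and of 34.2% of JunD peaks without BACH2, with 34.2% over all JunD peaks. The differences of the members were 0.22 points (-7.04 to 7.87) and 0.45 points (-7.18 to 8.39). Of these 72 nearest JunD peaks, 38 were overlapped by BACH2, near the 48.8% of all JunD peaks. Among the members, which were 208 of all 5237 JunD peaks, 2 pairs lay within 10 kb of each other. One was the chromosome 12 pair above, and the other lay at chr11:21080487-21081190 and chr11:21081537-21082044, 952 bp apart, with scores of 114 and 115.

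**Figure D5:**
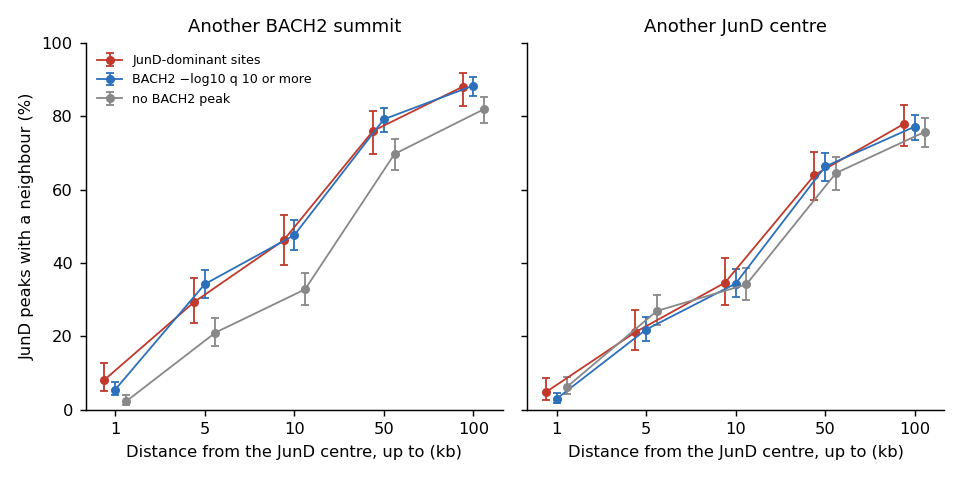
Share of JunD peaks (vertical axis, %, with Wilson 95% intervals) that had another BACH2 summit (left) or another JunD centre (right) within 1, 5, 10, 50 or 100 kb (horizontal axis, categories), for the JunD-dominant sites, the stronger sites and the JunD peaks with no BACH2 peak. On the left, the shares at 10 kb were 46.2%, 47.6% and 32.8% in this order, and at 5 kb 29.3%, 34.2% and 21.0%. At 5, 50 and 100 kb the intervals of the JunD-dominant sites and of the JunD peaks with no BACH2 peak overlap. On the right the intervals of the 3 classes overlap.

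Crowding varied widely among the members. The median member had 3 other peaks of the 2 lists within 50 kb, and 36 members, or 17.3%, had none. The share with none was 15.4% at the stronger sites and 20.1% at the JunD peaks with no BACH2 peak. The differences of the members were 1.95 points (-3.55 to 8.26) and -2.83 points (-8.87 to 3.87), and neither interval excluded an equal share. The most crowded member was at chr11:99029181-99030130 (score 116, −log10 q 4.97), with 12 other JunD and 10 other BACH2 peaks. It was followed by a site at chr8:129399511-129400092 with 21 other peaks, and by sites at chr2:11538247-11539019, chr1:60965446-60966341 and chr6:129160243-129160971 with 20 each. These 5 were singled out with their values known. The 25 members with 10 or more other peaks had a median JunD score of 161 and a median BACH2 fold of 3.78, and the 36 with none had 152 and 4.28.

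Members were spread over all chromosomes. Each autosome held between 5 and 18 of them, which was 12.6% to 25% of its JunD peaks past the limits, with a median of 16.2%. The highest share, on chromosome 14, rested on 7 of 28 peaks and had an interval from 12.7 to 43.4%. The X chromosome had 2 members among 10 such JunD peaks, at 93215753 to 93216158 and 34520597 to 34521293. No chromosome's interval excluded the 16.7% of the whole set.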

How the data were processed

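Peak lists of 1 BACH2 and 1 JunD ChIP-seq library were used, and no values of the input library were analysed here. The submitters' processing notes name Bowtie 0.12.9 and the build mm9 (NCBIM37). Which peak caller version and control were used, and whether libraries were pooled, is not given in the sources used here. The deposited BACH2 list gives each peak a fold enrichment (a ratio to the background estimated by the caller), the −log10 of its p-value and of its q-value, a summit, and an integer score that repeats the q-value. In the deposited JunD list each peak has 1 score, of unstated scale. The files hold no counts, so depth is unknown.

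Coordinates are counted from 1. Shares have Wilson 95% intervals, differences of shares Newcombe intervals and medians binomial order-statistic intervals. All cover the counting of peaks only, since peaks are not replicates, and no p-value was computed. The JunD centre was the midpoint of the peak. Sites named were the 10 with the highest score, the 5 with the lowest BACH2 −log10 q, the 5 with the largest rank gap and those beside the thresholds. Other sites were chosen after their values were seen. The members and comparisons were chosen with earlier results of these data known. Planned descriptions of promoters, motifs and gene lists needed mm9 sequence or genes and were not run. The rule, distances and neighbour counts were tested on simulated data. Python 3.11.15, numpy 2.4.6, pandas 2.3.3, scipy 1.17.1 and matplotlib 3.10.9 were used.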

Additional observations from a re-analysis of the deposited data

How the results depend on the processing

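The overlap definition, the JunD score minimum, the BACH2 limit, the width limit and chromosome 13 were varied 1 at a time. The comparisons of BACH2 neighbours and of fold were added after the data were seen. The difference in BACH2 neighbours and the log2 ratio of fold kept their sign, and the other values cannot be negative. Of 53 recomputed values, 44 stayed within the interval of the reported one or, for the number of sites, within 1.5 times it. Some settings kept nearly the same number of sites, such as 207 with at least 50% of the BACH2 peak covered and 199 without chromosome 13. Under those settings the values could hardly change. The number of sites was 100 with a JunD score of at least 150, 64 with a BACH2 −log10 q below 5 and 315 with one below 15, and the last 2 settings gave shares of 5.12% and 25.2% of JunD peaks. Without the width limit the summit lay a median of 73.75 bp from the centre and 45.5% of sites had another JunD centre within 10 kb. Within 50 kb, 63.9% of the members had one. The excess of BACH2 neighbours over JunD peaks without BACH2 was 2.83 points with a score of at least 150, 6.28 points (-1.19 to 13.2) within 50 kb, and 5.91 to 16.4 points under the other 8 settings, so that the interval included 0 with the higher score and at 50 kb. The log2 ratio of fold between members and weak BACH2 peaks without JunD was -0.17, and it ran from -0.20 to -0.16 under the 9 alternatives. Promoter and motif alternatives were not run. No paired analysis was possible because each factor had 1 library. Binding below the peak callers' thresholds was not listed, so a JunD peak without a BACH2 peak may still carry BACH2 below that threshold. Likewise, a BACH2 peak without a JunD peak may still carry JunD below the threshold of its list.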

Other observations

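The width limit kept out 82 JunD peaks that met the other conditions. They had a median width of 1360 bp and a median JunD score of 314, against 149 at the 208 members. Score went with width, with a Spearman's rho of 0.44 across the 2259 overlapped JunD peaks of any score up to 1000 bp. The rho was lower above the score minimum, at 0.22 across the 208 members and 0.20 across the 599 stronger sites. The BACH2 peaks of the 82 had a median fold of 3.62 and a median −log10 q of 6.06. Another JunD centre lay within 10 kb of 60 of the 82, or 73.2%, against 34.2% of all JunD peaks. Of the 82, 13 held 2 or more BACH2 peaks, against 3 of the 208 members. JunD peaks of similar width with a stronger BACH2 peak or none were not counted, so no share for that width stands beside these. The 82 sites were looked at after the main results were seen, and the differences were not tested.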
